A study of Homo sapiens with 6 samples.

Results

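CD180, LY86 and the Toll-like receptors belong to one receptor family and its partner proteins. The 9 genes described here are CD180, LY86, LY96, TLR1, TLR4, TLR7, TLR9, TLR10 and MYD88, and all 9 were found by symbol in the platform annotation, out of 14884 named genes. They were selected on their line levels in these arrays, because CD180 and LY86 code for partner proteins and peak in different lines. Differences between lines are therefore given as a description, without a test. Each gene had 1 probe set, so no choice between probe sets was needed.

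RNA came from RPMI8226, KMS11 and U266, 3 established human multiple myeloma lines, which grow from malignant plasma cells. Each line was transfected either with a miR-10a mimic or with a scrambled control RNA, both at 100 nM, and collected after 48 h, so every array is of transfected cells. There were 3 mimic arrays and 3 control arrays of the Affymetrix Human Gene 2.0 ST type, 1 for each line and treatment. The labels do not say whether arrays came from separate cultures, the cell line tag of both RPMI8226 arrays is spelled RPI8226, and a level of whole-culture RNA cannot tell fewer expressing cells from less RNA per cell.

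Toll-like receptors recognise microbial molecules through leucine-rich repeats outside the membrane and signal through a TIR domain inside the cell, which for most of them recruits the adaptor MYD88 and leads to NF-kB and interferon regulatory factors. CD180, also called RP105, has a similar outer part but lacks the TIR domain, and on B cells it is held at the surface by LY86, also called MD-1. TLR4 has a parallel partner, LY96 or MD-2, which binds lipopolysaccharide. B cells carry CD180, LY86 and several Toll-like receptors, and normal plasma cells lose much of the B cell surface programme.

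The treatment RNA imitates miR-10a, and its mature strand is shown because the seed, in capitals (bases 2 to 8), is the part that pairs with target transcripts. It is given 5′ to 3′ as RefSeq has it (GRCh38.p14, minus strand, chr17:48579904-48579926), and the product's own chemistry is not given in the sources used here.
hsa-miR-10a-5p: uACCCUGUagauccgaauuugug

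The bases before the start sites of CD180, LY86 and TLR9 are shown because these genes had some of the widest differences between lines. RefSeq windows (GRCh38.p14) were matched for 5 of the 9 genes, and 250 bases before the start were searched on both strands for 2 motifs. These were the PU box GAGGAA, a core bound by the myeloid and B cell factor SPI1 (PU.1), and the octamer ATGCAAAT, bound by POU2F factors. Capitals mark every match, and TTCCTC is the PU box on the other strand. The windows lie at chr5:67196800-67197049 (minus strand), chr6:6588470-6588719 (plus strand) and chr3:52225646-52225895 (minus strand), each printed 5′ to 3′ in the direction of its gene.
CD180: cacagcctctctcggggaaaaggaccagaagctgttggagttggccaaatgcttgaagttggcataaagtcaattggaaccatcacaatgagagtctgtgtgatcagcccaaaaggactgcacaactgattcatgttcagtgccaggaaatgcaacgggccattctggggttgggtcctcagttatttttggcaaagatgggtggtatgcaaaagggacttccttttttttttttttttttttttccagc
LY86: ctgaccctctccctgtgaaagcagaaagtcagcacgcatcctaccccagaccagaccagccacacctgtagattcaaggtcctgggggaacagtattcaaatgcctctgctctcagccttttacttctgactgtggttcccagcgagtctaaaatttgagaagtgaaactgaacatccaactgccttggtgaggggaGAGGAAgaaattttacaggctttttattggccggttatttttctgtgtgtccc
TLR9: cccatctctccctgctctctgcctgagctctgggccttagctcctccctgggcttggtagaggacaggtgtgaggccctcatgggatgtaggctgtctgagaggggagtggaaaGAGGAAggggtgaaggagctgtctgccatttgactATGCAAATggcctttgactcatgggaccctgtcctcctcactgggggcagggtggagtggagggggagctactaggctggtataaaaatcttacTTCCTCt

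The CD180 window held neither motif in these letters. The LY86 window held 1 PU box, starting 53 bases before the start site. The TLR9 window held 2 PU boxes and 1 octamer, the octamer starting 101 bases before the start site. TLR4 had 4 PU boxes, and MYD88 had 1. The PU box was thus found in 4 of the 5 windows, against 23.6% of 35116 RefSeq windows of the same length, and the octamer in 1, against 1.63%. No 2 matches overlapped in these windows. A match describes letters and does not show binding.

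CD180 was high in U266 alone of the 3 lines. On the log2 scale it stood at 10.09 with mimic and 10.02 with control in U266, while RPMI8226 had 2.87 (mimic) and 3.13 (control) and KMS11 had 2.66 (mimic) and 2.76 (control) (probe set 16996813). Both U266 arrays lay above all other arrays, and the U266 line mean exceeded that of KMS11 by 7.35 log2 units, or 163-fold. RPMI8226 and KMS11 did not overlap, but their means differed by 0.29, about as much as the RPMI8226 arrays differed from each other (0.27).

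LY86, the partner that carries CD180 to the surface, was high in RPMI8226 instead. It stood at 9.66 with mimic and 9.74 with control in RPMI8226, while KMS11 had 3.86 (mimic) and 3.79 (control) and U266 had 3.62 (mimic) and 3.57 (control) (probe set 17004518). The 4 arrays of KMS11 and U266 spanned under 0.3 log2 units, and the RPMI8226 mean exceeded the U266 mean by 6.10, or 68.8-fold. The line with the highest CD180 level thus had the lowest LY86 level of the 3. KMS11 had low values of both genes. A span of at least 6 log2 units between line means was seen in 21 of 14884 genes, or 0.141%, and CD180 and LY86 are 2 of those 21. The array gives no detection calls, so whether the low values stand above background is unknown.

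**Figure D1:**
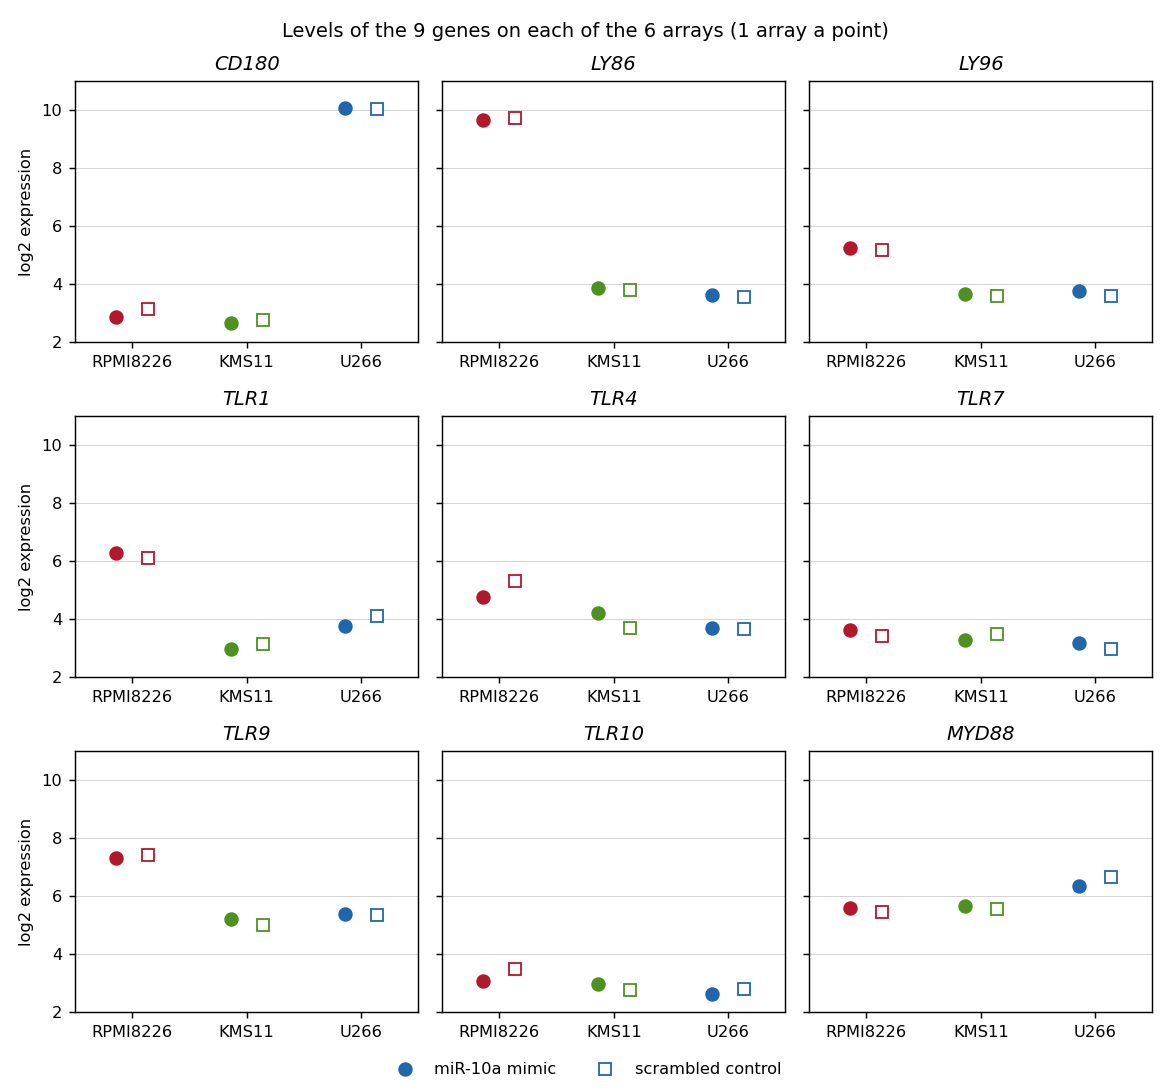
Log2 expression (y axis, the same scale in all panels) of the 9 genes in RPMI8226, KMS11 and U266 (x axis), 1 point an array, with filled circles for miR-10a mimic and open squares for scrambled control. CD180 stands near 10 in U266 alone and LY86 near 9.7 in RPMI8226 alone, while mimic and control points of a line lie close together for most genes.

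TLR4 and its partner LY96 had their highest values in the same line, RPMI8226. LY96 stood at 5.24 with mimic and 5.17 with control in RPMI8226, while KMS11 had 3.68 (mimic) and 3.61 (control) and U266 had 3.78 (mimic) and 3.61 (control). Both RPMI8226 arrays were above the others by about 1.5 log2 units, and KMS11 and U266 overlapped. TLR4, the lipopolysaccharide receptor, stood at 4.76 with mimic and 5.33 with control in RPMI8226, while KMS11 had 4.22 (mimic) and 3.69 (control) and U266 had 3.69 (mimic) and 3.67 (control). The RPMI8226 mean of TLR4 exceeded the U266 mean by 1.37 log2 units (2.58-fold) without overlap, although the 2 RPMI8226 arrays themselves differed by 0.57. KMS11 and U266 differed by 0.28 in TLR4, less than the 0.53 between the KMS11 arrays.

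TLR1, which pairs with TLR2 to sense bacterial lipopeptides, was also highest in RPMI8226. It stood at 6.27 with mimic and 6.10 with control in RPMI8226, while U266 had 3.77 (mimic) and 4.09 (control) and KMS11 had 2.99 (mimic) and 3.16 (control). The 3 lines did not overlap, and the RPMI8226 mean exceeded the KMS11 mean by 3.11 log2 units, or 8.66-fold. TLR10, a family member whose ligand is not settled, stood at 3.08 with mimic and 3.48 with control in RPMI8226, while KMS11 had 2.97 (mimic) and 2.75 (control) and U266 had 2.62 (mimic) and 2.81 (control). Its RPMI8226 values were the highest, but the lower of them exceeded the next array by only about 0.1, within the 0.40 that separated the RPMI8226 arrays, and KMS11 and U266 overlapped. TLR10, TLR1 and TLR6 are consecutive protein-coding genes on chromosome 4 in GRCh38.p14. TLR6, not among the 9, stood at 6.31 with mimic and 6.78 with control in RPMI8226 and between 2.63 and 2.91 on the other 4 arrays.

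TLR9, the endosomal receptor for unmethylated CpG DNA, followed the same order at a smaller span. It stood at 7.29 with mimic and 7.42 with control in RPMI8226, while U266 had 5.37 (mimic) and 5.33 (control) and KMS11 had 5.20 (mimic) and 5.01 (control). The RPMI8226 mean exceeded that of KMS11 by 2.25 log2 units, or 4.76-fold, and no lines overlapped. TLR7, the endosomal receptor for single-stranded RNA, showed little difference. RPMI8226 had 3.62 with mimic and 3.42 with control, KMS11 had 3.27 (mimic) and 3.50 (control), and U266 had 3.19 (mimic) and 2.98 (control). RPMI8226 and KMS11 overlapped, and the whole span of line means of TLR7 was 0.44 log2 units.

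MYD88, the shared adaptor, was highest in U266. It stood at 6.33 with mimic and 6.67 with control in U266, while KMS11 had 5.65 (mimic) and 5.56 (control) and RPMI8226 had 5.60 (mimic) and 5.45 (control). Both U266 arrays were above the other 4, the U266 line mean exceeded that of RPMI8226 by 0.98 log2 units (1.97-fold), and KMS11 and RPMI8226 overlapped.

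Taking the 9 genes together, both RPMI8226 arrays lay above the other 4 for 6 genes (LY86, LY96, TLR1, TLR4, TLR9 and TLR10), a pattern that 20.0% of all named genes had. Both U266 arrays lay above the others for 2 genes, CD180 and MYD88, against 19.0% of all genes, and both KMS11 arrays for 0, against 20.3%. A span of at least 2 log2 units was found for 4 of the 9 (CD180, LY86, TLR1 and TLR9), against 6.74% of all genes. These counts describe genes chosen with their line levels known.

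**Figure D2:**
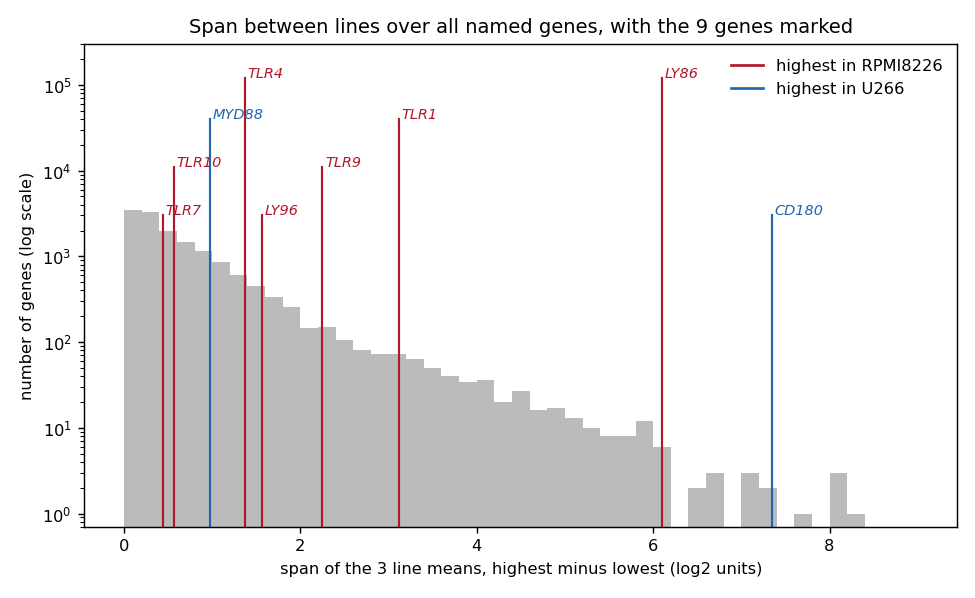
Number of named genes (y axis, log scale) by the span of the 3 line means, highest minus lowest in log2 units (x axis), with a vertical line at each of the 9 genes coloured by its highest line (RPMI8226 or U266) and of arbitrary height. CD180 (7.35) and LY86 (6.10) lie in the far right tail, and TLR7 (0.44) lies near the median of all genes (0.46).

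The genes with the most similar pattern over the 6 arrays were sought among 11914 protein-coding genes, by the smallest root mean square difference between profiles centred on each gene's own mean. With 3 lines many genes share a shape: 133 genes reached a Pearson r of 0.99 with CD180 and 138 with LY86, so the lists below are descriptive. Nearest to CD180 were DAZ1, SLAMF6, DAZ3, DAZ2 and CCL3L1, with differences of 0.257, 0.263, 0.390, 0.443 and 0.755 log2 units. DAZ1, DAZ2 and DAZ3 are near-identical copies, and CCL3L1 resembles CCL3 closely, so their probe sets are uncertain. SLAMF6, a lymphocyte surface receptor gene, stood at 9.32 with mimic and 9.22 with control in U266 and between 2.38 and 2.65 on the other arrays. Nearest to LY86 were CXCL8, PLEK, GPX7, LTF and CD38, with differences of 0.147, 0.159, 0.291, 0.309 and 0.380. PLEK, which codes for pleckstrin, a protein kinase C substrate of blood cells, stood at 11.12 with mimic and 11.11 with control in RPMI8226 and between 4.59 and 5.23 elsewhere. For TLR1 the nearest were ADGRL1, TEX9, TRAF1, TMT1A and ZNF141 (0.156 to 0.248), and for TLR9 they were KRT18, OXTR, LPXN, GAL and ETV1 (0.0816 to 0.119).

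The miR-10a mimic was then set against the scrambled control within the lines. None of the 9 genes passed the test. In a limma fit of all 14884 genes that paired the arrays of each line, the adjusted p-values of the 9 genes lay between 0.967 and 0.997, and 0 genes of the whole table passed an adjusted p of 0.05 (0% called). At an unadjusted p under 0.05, 415 genes were higher (2.79%) and 352 lower (2.36%) with mimic, none of the 9 among them. By sign of the mean change, 4 of the 9 were higher and 5 lower, with a median of -0.010 log2 units, beside 0.0049 over all genes.

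The difference between mimic and control for CD180 was -0.27 (RPMI8226), -0.10 (KMS11) and 0.07 (U266), the line that expressed it highly, a mean of -0.10 ± 0.17 log2 units (SD of 3 lines). Its 95% confidence interval ran from -0.33 to 0.13, and the mean was -0.017 without RPMI8226 and -0.18 without U266. The negative mean came from RPMI8226 and KMS11, where CD180 levels were low (2.66 to 3.13). For LY86 the difference between mimic and control was -0.08 (RPMI8226), 0.07 (KMS11) and 0.05 (U266), a mean of 0.015 ± 0.081 with an interval from -0.19 to 0.22. In the line where each partner was high, the difference between mimic and control was thus at most 0.08 log2 units, with 1 array each.

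LY96 was the single gene of the 9 with the same sign in every line, at 0.07 (RPMI8226), 0.07 (KMS11) and 0.17 (U266), a mean of 0.10 ± 0.06 (SD of 3 lines, limma's adjusted p = 0.967). Of all named genes, 25.1% had the same sign in the 3 lines, in either direction. TLR4 had the widest differences, of opposite sign, at -0.57 (RPMI8226), 0.53 (KMS11) and 0.01 (U266), a mean of -0.010 ± 0.547, or 0.27 without RPMI8226 and -0.28 without KMS11. In a fit with 1 residual degree of freedom, where each line is 1 pair of arrays and the spread comes from the other 2 lines and the prior over all genes, the change of TLR4 in RPMI8226 stood -0.84 log2 units from that of the other lines (limma, unadjusted p = 0.0241, adjusted p = 0.814) and in KMS11, set against the other lines likewise, it stood at 0.80 (unadjusted p = 0.0300, adjusted p = 1.00), so neither passed. TLR10 gave -0.40 (RPMI8226), 0.22 (KMS11) and -0.19 (U266), and MYD88 gave 0.15 (RPMI8226), 0.09 (KMS11) and -0.34 (U266).

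Mean changes of the remaining receptors were -0.11 ± 0.25 for TLR1 (-0.25 without RPMI8226, -0.0046 without U266), 0.06 ± 0.25 for TLR7 and 0.035 ± 0.157 for TLR9. No gene of the 9 differed by 1.5-fold between mimic and control in any line. Such a difference in either direction was seen in 2.00% of all genes (RPMI8226), 1.40% (KMS11) and 2.10% (U266). The limma confidence intervals of all 9 mean changes lay between -0.49 and 0.47, inside 1.5-fold, which is 0.58 log2 units. Each gene's spread is drawn toward a prior over all genes, so the 3 lines alone do not set these widths. TLR4 had the largest SD over lines of the 9, 0.547, followed by TLR10 (0.315), MYD88 (0.269), TLR7 (0.250) and TLR1 (0.246). With spreads this wide, the 3 lines alone do not exclude a 1.5-fold mean change for any of these genes. Tests of the change in a single line against the other lines called 0 genes of the table in each case (0% called), with 902 genes (6.06%) at an unadjusted p under 0.05 for RPMI8226, 609 (4.09%) for KMS11 and 911 (6.12%) for U266, and the smallest adjusted p of the 9 genes was 0.814. Of the 9, TLR4 was among the 902, TLR4 and TLR10 were among the 609, and none was among the 911.

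**Figure D3:**
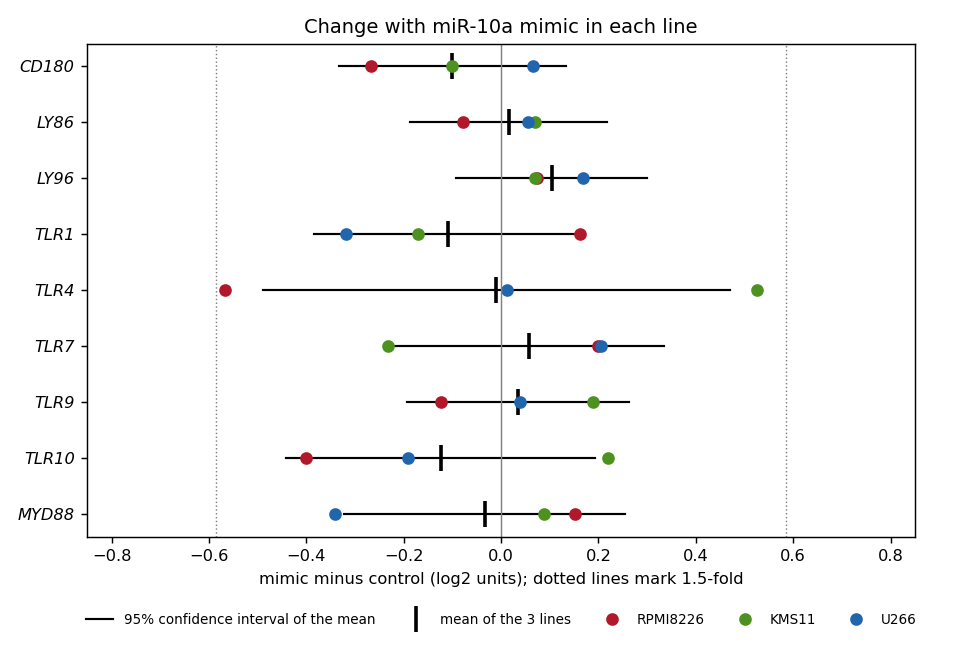
Mimic minus control in log2 units (x axis) for the 9 genes (y axis), with 1 coloured point a line, a black tick for the mean of 3 lines, a bar for its 95% confidence interval from limma and dotted lines at 1.5-fold. All intervals cover 0, no point reaches 1.5-fold, and the TLR4 points of RPMI8226 and KMS11 lie widest apart.

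Other genes of the pathway were followed through 9 lists with 103 symbols, 76 of them with a named probe set. With mimic 0 of the 76 passed the test in either direction (smallest adjusted p = 0.953 in limma), 0 had an unadjusted p under 0.05, 43 had a higher and 33 a lower mean, and the median change was 0.0049 log2 units. Between lines, both RPMI8226 arrays were above the others for 29 of the 76, both KMS11 arrays for 18 and both U266 arrays for 13, where all named genes gave 20.0%, 20.3% and 19.0%.

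Among the 5 remaining Toll-like receptors, TLR6 had the widest span between lines and TLR3 the next. TLR3, a receptor for double-stranded RNA, was lowest in U266, at 3.05 with mimic and 2.71 with control, against 4.17 to 4.44 in RPMI8226 and KMS11. TLR2, the partner of TLR1 and TLR6, stood between 3.21 and 3.83 on all arrays, and its mimic change was -0.17 ± 0.08 (limma's adjusted p = 0.967).

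Of 11 named chaperones and accessory proteins, 5 were highest in RPMI8226 without overlap, beside 20.0% of all named genes. CTSS, cathepsin S, a lysosomal protease that can cleave endosomal receptors, stood at 9.49 with mimic and 9.44 with control in RPMI8226, while KMS11 had 7.11 (mimic) and 6.75 (control) and U266 had 4.56 (mimic) and 4.71 (control). LGMN, legumain, a further endosomal protease, stood at 10.12 with mimic and 10.16 with control in RPMI8226 and between 7.58 and 7.81 on the other arrays. UNC93B1, which escorts TLR7 and TLR9 to endosomes and was singled out after its values were seen, stood at 7.87 with mimic and 8.07 with control in RPMI8226, while KMS11 had 6.22 (mimic) and 6.23 (control) and U266 had 5.92 (mimic) and 5.70 (control). Other members of the list ran differently. CTSB, cathepsin B, was highest in U266, at 5.87 with mimic and 5.96 with control, while RPMI8226 had 4.98 (mimic) and 4.99 (control), and CNPY4 was also highest in U266 and TASL in KMS11, both singled out, like CTSB, after their values were seen. CNPY3, a folding factor of Toll-like receptors, had line means within 0.062 log2 units of each other and a mimic change of 0.10 ± 0.14.

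Among 7 named adaptors and proximal kinases, PELI1, a ubiquitin ligase gene, and IRAK2, a kinase gene downstream of MYD88, had the widest spans. PELI1 stood at 9.67 with mimic and 9.75 with control in RPMI8226, while KMS11 had 8.34 (mimic) and 8.35 (control) and U266 had 4.90 (mimic) and 4.92 (control). IRAK2 stood at 7.19 with mimic and 7.14 with control in RPMI8226, while U266 had 5.75 (mimic) and 5.69 (control) and KMS11 had 4.44 (mimic) and 4.43 (control). The widest mimic changes in this list were 0.15 ± 0.25 for SARM1 and 0.11 ± 0.07 for IRAK1, with limma's adjusted p = 0.967 for each.

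Of 12 listed B cell proteins through which CD180 signals, 7 had a named probe set. Both RPMI8226 arrays were on top for 4 of the 7, beside 20.0% of all named genes, and both U266 arrays for 1 (VAV1), beside 19.0%. LYN, a kinase that acts early in CD180 signalling and was singled out after its values were seen, ran the other way, with 6.28 (mimic) and 5.84 (control) in RPMI8226 and 7.74 to 7.91 on the other arrays. BLNK, a B cell adaptor, stood at 7.08 with mimic and 7.11 with control in RPMI8226 and between 3.16 and 3.43 on the other arrays. BTK, a B cell kinase, stood at 7.47 with mimic and 7.26 with control in RPMI8226, while U266 had 5.44 (mimic) and 5.44 (control) and KMS11 had 3.90 (mimic) and 3.79 (control). SYK and VAV2, named for the widest mimic changes, gave 0.15 ± 0.17 and -0.15 ± 0.40, with limma's adjusted p = 0.967 for each.

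**Figure D4:**
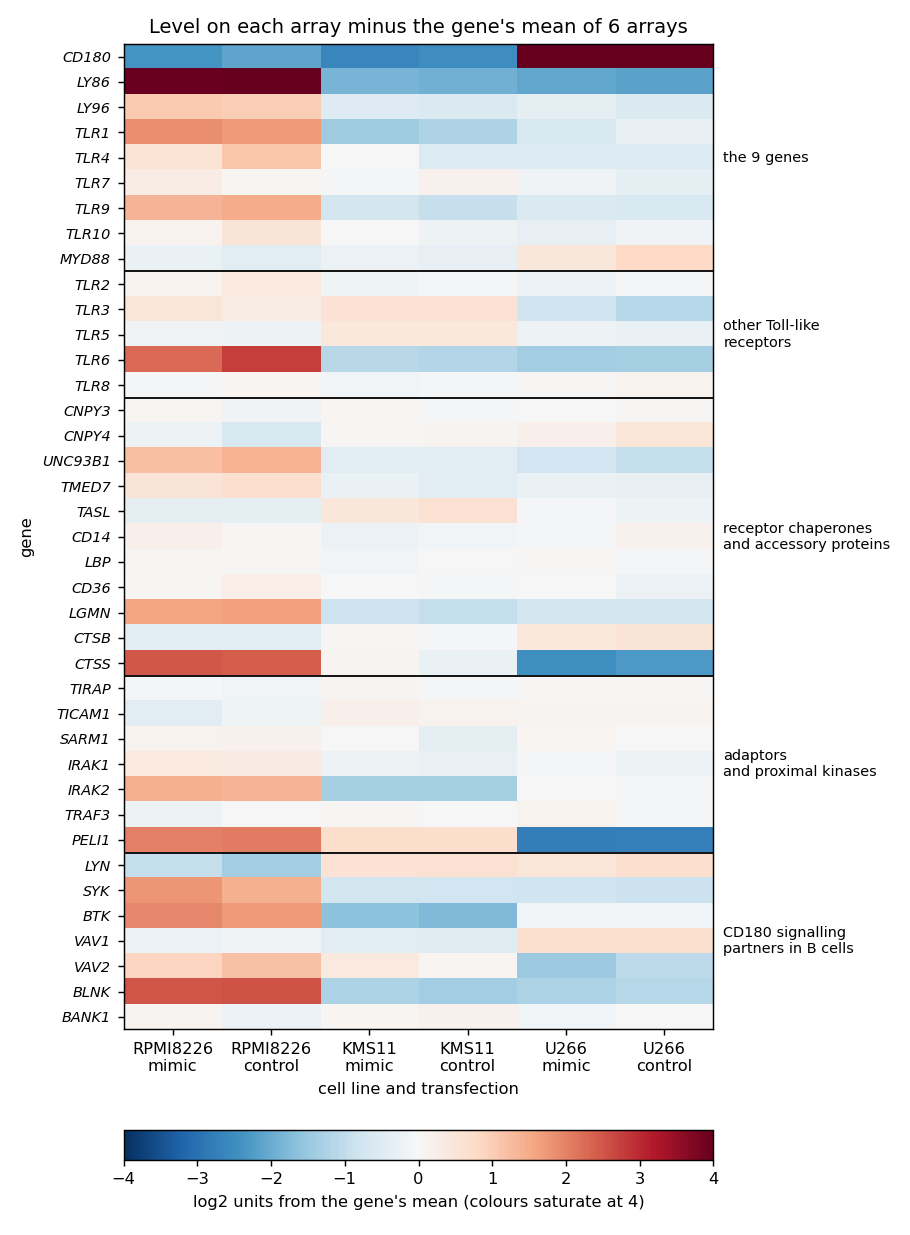
Level on each array minus the gene's mean over 6 arrays, in log2 units (colour, saturating at 4), for the 9 genes and 4 of the pathway lists (rows) on the 6 arrays (columns, mimic left of control in each line). CD180 is red in both U266 columns, whereas LY86, TLR1, TLR6, TLR9, UNC93B1, LGMN, CTSS, IRAK2, BTK and BLNK are red in both RPMI8226 columns.

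Markers of plasma cells, B cells and myeloid cells were read as a description. They do not verify the line labels or exclude other cell types, and the T and NK cell and stromal lists are not described. The plasma cell factors IRF4 and XBP1 were high on all arrays, at 10.26 to 10.89 and 9.34 to 9.65, as plasma cells carry them. Other plasma cell genes split by line: SDC1, which codes for CD138, was highest in U266 (9.48 with mimic, 9.49 with control) and CD38 in RPMI8226 (9.90 with mimic, 9.99 with control). SLAMF7 was high in U266 alone (7.23 with mimic, 7.73 with control, 3.27 to 3.79 elsewhere). MZB1 was highest in RPMI8226 (9.96 with mimic, 10.03 with control) and lowest in U266 (6.11 with mimic, 6.18 with control). CD27, also in this list, was low on all arrays, at 3.43 to 3.53. Of 5 named B cell markers, BLK was highest in RPMI8226 (6.32 with mimic, 6.61 with control, 4.49 to 4.96 elsewhere), and CD22 stood between 2.78 and 2.93 on all arrays. CR2 stood between 4.41 and 4.71 in RPMI8226 and KMS11, which overlapped, and at 3.10 with mimic and 2.82 with control in U266. On all arrays PAX5 stood between 3.95 and 4.18 and CD24 between 1.86 and 2.45. Of 7 named myeloid markers, CD68 was highest in RPMI8226 (8.02 with mimic, 8.35 with control, 4.46 to 5.34 elsewhere), while CD14 stayed between 2.38 and 2.83 and LYZ between 2.31 and 2.79. Summed over the 7 myeloid markers, the log2 levels came to 26.96 and 28.04 in RPMI8226, 23.49 and 23.56 in KMS11, and 23.83 and 24.02 in U266 (mimic, then control). CD68 made up most of that gap. Without it, a choice made after its values were seen, the sums of the other 6 markers were 18.94 and 19.69 in RPMI8226, 19.00 and 19.10 in KMS11, and 18.49 and 18.88 in U266, again mimic and then control. Log2 values on this array do not reach 0, and the part of these markers in the RPMI8226 levels was not tested.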

How the data were processed

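The authors deposited 1 table of log2 values for 53617 probe sets on 6 arrays, and the submitters' processing notes name Affymetrix Expression Console 1.3.0. Background correction, normalization and genome build are not given, and such summaries can compress changes of weakly expressed genes. Array medians lay between 3.61 and 3.66, and the number of arrays limits the precision. The platform annotation named 16098 probe sets with 1 symbol, 0 with several, and left 37519 unnamed. Of a gene's probe sets, that with the highest mean was used.

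Mimic and control were compared in limma 3.58.1 (R 4.3.3, lmFit and eBayes, two-sided, Benjamini-Hochberg, threshold 0.05) over all 14884 named genes, with the cell line, taken from the labels, as a block (after subtracting treatment means, paired arrays correlated across genes at r = 0.932 to 0.938). This leaves 2 residual degrees of freedom. The p-values and intervals rest on the spread of a gene's change between lines and on a prior over all genes, which adds 4.12 degrees of freedom. A second fit added a term for 1 line's own change, which leaves 1 residual degree of freedom. Of 200 changes simulated among 14884 genes for the mimic comparison, 89.5% of 1.5-fold and 99.5% of 2-fold were recovered, with 14 and 16 false calls. The same change was added in every line, with independent normal noise at each gene's spread after moderation. The rates therefore do not hold for changes that differ between lines, as those of TLR4 did. Nor do they hold for a change in only a few genes, since 200 changed genes ease the adjusted threshold. Spreads after moderation also vary less from gene to gene than the measured ones. The rates thus do not say how surely a change in 1 of the 9 genes would be called. No filter was applied, since 5 of the 9 genes lie below the median gene mean (4.70). Alternatives were that filter, other normalizations, no block, a variance trend, other probe set rules and leaving out a line.

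The 9 genes, 9 pathway lists and 5 marker lists were chosen with earlier results of these data known. From each pathway list the text names genes with the widest span between lines or the widest mimic change. Sequences come from RefSeq tables.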

Additional observations from a re-analysis of the deposited data

How the results depend on the processing

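The mimic called 0 genes under the planned settings, that is with the filter, after quantile normalization, with array medians centred, with no replicate block, with a variance trend, with probe sets averaged, over all probe sets, and without any 1 line. With no replicate block, 74 genes had an unadjusted p under 0.05, against 767 with it. The tests of 1 line's change against the others, run with the filter, both normalizations, a variance trend, averaged probe sets and all probe sets, called 0 genes except with the trend, where 8 genes were called for KMS11 and 1 (MIR4518, named after its value was seen) for U266, none of them among the 9 described here; the cause was not tested.

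For the 9 genes, 85 recomputed mean changes gave 0 calls, and 77 kept their sign. Many of the 77 could not turn. With the filter, no block, a variance trend, averaged probe sets or all probe sets, each mean change equals the main value. The 8 that turned all left out a line. The mean change ranged from -0.012 to 0.062 for LY86 with a line left out, from -0.28 to 0.27 for TLR4, from -0.016 to 0.20 for TLR7, from -0.042 to 0.11 for TLR9, from -0.30 to 0.014 for TLR10, from -0.13 to 0.12 for MYD88, from -0.18 to -0.017 for CD180, from -0.25 to -0.0046 for TLR1 and from 0.071 to 0.12 for LY96. Turned values for LY86 were -0.012 without KMS11 and -0.0041 without U266. TLR7 gave -0.013 without RPMI8226 and -0.016 without U266. TLR4 gave 0.27 and TLR10 0.014 without RPMI8226, TLR9 gave -0.042 without KMS11, and MYD88 gave 0.12 without U266. Line levels moved by at most 0.036 log2 units in 81 recomputed values, and each gene kept its highest line. Those with averaged probe sets could not move, as each of the 9 genes had 1 probe set. The others had little room to move, since array medians already lay close together. By Pearson r instead of profile distance, 2 of the 5 nearest genes of CD180, 1 of LY86, 0 of TLR1 and 0 of TLR9 were shared. Signal over background is unknown, so low levels, such as those of TLR7 and TLR10 and of CD180 outside U266, are uncertain.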

Other observations

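Among genes that the pathway induces, the widest spans between lines were those of CXCL8, highest in RPMI8226, and CCL3, highest in U266. CXCL8, the neutrophil chemokine interleukin 8, stood at 8.04 with mimic and 8.22 with control in RPMI8226 and between 2.12 and 2.35 on the other arrays. CCL3, a chemokine of activated B and myeloid cells, stood at 9.46 with mimic and 9.11 with control in U266, while KMS11 had 5.03 (mimic) and 4.98 (control) and RPMI8226 had 4.30 (mimic) and 4.35 (control). As CCL3L1 resembles CCL3 closely, the source of this signal is uncertain. Of 11 named genes in this list, both RPMI8226 arrays were on top for 6, both U266 arrays for 3 and both KMS11 arrays for 1, beside 20.0%, 19.0% and 20.3% of all named genes. CD80, a costimulatory ligand gene, gave a mimic minus control difference of 0.61 log2 units in RPMI8226, against -0.10 (KMS11) and -0.04 (U266), a mean of 0.15 ± 0.39 (SD of 3 lines, limma's adjusted p = 0.967). CD83, a surface protein of activated B and dendritic cells singled out after its values were seen, gave 0.70 (KMS11), -0.38 (RPMI8226) and -0.46 (U266). In the limma test of KMS11 against the other lines it had an unadjusted p of 0.00137 and an adjusted p of 1.00. CD80 in RPMI8226 and CD83 in KMS11 were the only genes of this list to reach 1.5-fold in a line.

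Among pathway transcription factors, IRF8, a B cell and myeloid factor, stood at 7.24 with mimic and 7.25 with control in RPMI8226, while KMS11 had 5.73 (mimic) and 5.42 (control) and U266 had 4.97 (mimic) and 5.21 (control). NFKB1 stood at 7.14 with mimic and 7.23 with control in U266 and between 8.56 and 8.79 in RPMI8226 and KMS11. Of the lineage factors, POU2F2, which binds the octamer, had the widest span, at 6.19 with mimic and 6.40 with control in U266 and between 3.21 and 3.32 elsewhere. SPI1, which binds the PU box, stood at 5.83 with mimic and 5.58 with control in RPMI8226, while KMS11 had 4.93 (mimic) and 4.84 (control) and U266 had 4.66 (mimic) and 4.47 (control), with a mimic change of 0.18 ± 0.08 and the smallest adjusted p of the pathway genes (limma, 0.953). Among inhibitors, ATF3, a stress-induced repressor, was lowest in U266, at 4.76 with mimic and 5.13 with control, against 7.33 to 8.42 in the other lines. In the TAK1 and IKK list, no gene reached a span of 2 log2 units, and CHUK, coding for IKK alpha, had the widest, 1.32.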
